A study of Homo sapiens with 10 samples.

Results

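The comparison described here sets A549 cells treated with 25 μg/mL DRB against A549 cells treated with DMSO, the vehicle. The libraries were chosen by the labelled agent and dose alone, which gives 4 of the 10 libraries of the series, 2 at 25 μg/mL DRB and 2 with DMSO. The 2 libraries at 10 μg/mL DRB entered the same model fits and are given where the doses are set side by side, whereas the α-amanitin libraries were used only in alternative fits. A549 is an established lung adenocarcinoma cell line that carries an inactivating KEAP1 mutation, and all groups were made from poly(A) RNA of this line with a strand-marking library kit. The sources used here do not give how long the cells were kept in DRB or DMSO. Nor do the labels say whether replicates were separate cultures, and a p-value therefore measures only how far these libraries spread, which may be technical.

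DRB (5,6-dichloro-1-β-D-ribofuranosylbenzimidazole) is a nucleoside analogue that inhibits kinases of the transcription cycle, above all CDK9, the catalytic subunit of the positive transcription elongation factor P-TEFb. P-TEFb phosphorylates the C-terminal domain of RNA polymerase II and the pausing factors DSIF and NELF, and thereby allows the paused polymerase to move into the gene body. After such inhibition new full-length transcripts become scarce, and the composition of poly(A) RNA comes to depend on how stable each transcript is and on any synthesis that remains. The question that the comparison addresses, as far as the title and labels of the series give it, is how slowing RNA polymerase II changes spliced RNA.

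Each library is a list of introns with counts of split reads (reads that cross the exon junction) and of unspliced reads at either end, and of exons with counts of reads for inclusion and for skipping. The DMSO libraries held 4297890 and 4765752 split reads, those at 10 μg/mL DRB 3945772 and 4929783, and those at 25 μg/mL DRB 2899344 and 5175747. An intron is listed only with at least 3 split reads and at least 11 split and unspliced reads together, so an unlisted intron can hold up to 10 split reads. The libraries at 25 μg/mL DRB listed 45513 and 60620 introns against 74739 and 75422 with DMSO, and their 20 most abundant genes took 15.4% and 14.9% of split reads against 9.61% and 9.65%. Of the unspliced reads, those at an intron of ribosomal RNA-like sequence on chromosome 21 numbered 148 and 126 per 1000 split reads at 25 μg/mL DRB, against 117 and 109 with DMSO. Those at a single listed intron of the mitochondrial chromosome numbered 35.6 and 28.2 against 21.7 and 14.9. That interval does not measure mitochondrial reads as a whole. The SD of the log2 difference between replicates was 1.09 at 25 μg/mL DRB, against 0.475 with DMSO and 0.388 at 10 μg/mL. The part that these library differences play in the results below was not tested. Of 12 fixed markers of A549 cells, which include VIM and S100A6 beside keratins, 7 had reads in each library at 25 μg/mL DRB and 8 in each library with DMSO, with sums of 19993 and 20989 against 10074 and 9723 CPM, the usual per-library scaling of counts, here of split reads. The members moved both ways, with 5 of 8 tested genes higher and 2 lower. By exon inclusion reads, VIM had 3220 and 3446 CPM against 1277 and 1136 CPM, and KRT18 58.5 and 127 CPM against 241 and 301 CPM. Of 12 markers of blood, vessel, stromal, liver and alveolar cells, COL1A1 alone had reads, at 29.9 and 0 CPM in the cells at 25 μg/mL DRB against 147 and 11.4 CPM with DMSO. Both marker sums were scaled over all genes with reads, without the filter used for the tests.

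The cells at 25 μg/mL DRB differed from DMSO cells in most expressed genes. Transcripts of ribosomal proteins, respiratory chain subunits, glycolytic enzymes and short-lived regulators such as FOSL1, KLF6 and CDKN1A were higher, and those of the mitotic, DNA replication and homologous recombination machinery were lower. For each gene the split reads of its introns were added up, libraries were scaled by the trimmed mean of M values (TMM), which all CPM values carry, and the test was limma voom. Of 9501 genes tested, 5831 (61.4%) passed an adjusted p of 0.05, 1922 (20.2%) higher and 3909 (41.1%) lower, and the median log2 fold change over all genes was -1.01. A CPM is a share of a library's reads, so all changes are relative, and in bulk RNA fewer cells with a transcript and less of it per cell cannot be told apart. When libraries were scaled by their total split reads instead, the median moved by -0.48 on the log2 scale and the calls split into 1360 higher and 4906 lower genes.

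The listing minimum bears on the falls far more than on the rises. Of the 3909 lower genes, 1917 had no listed intron in either library at 25 μg/mL DRB, whereas 243 of the 1922 higher genes had none in either DMSO library. With 10 reads placed on every unlisted intron, 2012 of the lower genes stayed lower, 583 of them by more than 2-fold, and 1870 of the higher genes stayed higher, 1041 of them by more than 2-fold. Summed only over introns listed in all 4 libraries, 4817 genes could be tested and 2857 (59.3%) were called, of which 1403 (29.1%) were higher and 1454 (30.2%) were lower, around a median log2 fold change of -0.02. Reads for exon inclusion, an alternative measure added after seeing the data, gave 2370 higher and 4180 lower genes of 10510, with 1699 of the falls at 0 in both libraries at 25 μg/mL DRB. Without replicate 1 at 25 μg/mL DRB the split reads gave 1717 higher and 1557 lower genes, and without replicate 2 they gave 1324 and 1152. The median log2 fold change was -0.65 without replicate 1 and -1.34 without replicate 2. In these fits the lone library is assumed to vary like the other groups.

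Among the transcripts with the strongest rises were those of genes with few or no listed introns in DMSO cells. ACTA2 (chr10:90694831-90751096, hg19), which encodes smooth muscle α-actin, had 1199 and 1809 split reads in the cells at 25 μg/mL DRB and none listed with DMSO. It already stood at 718 and 844 reads at 10 μg/mL. Exon inclusion reads of ACTA2, which are listed separately, were 2398 and 3618 against 14 and 13 with DMSO. Its listed reads set the gene at least 29.97-fold higher than in DMSO cells, even with every unlisted intron at 10 reads. ACTA2 and FAS overlap at their 5′ ends on opposite strands, and since the counting was not stated to use strand, reads there cannot be told apart. NOTCH3 (chr19:15269849-15311806), a Notch receptor, had 316 and 541 split reads against none, and was also not listed at 10 μg/mL. The same limit puts NOTCH3 at least 2.49-fold higher, and its exon inclusion reads were 776 and 1193 against 0 and 0. RUNX1, a transcription factor, and ABCA4, PLB1, BST1, CRAMP1 and LINC-PINT were likewise unlisted in both DMSO libraries, with limits from at least 1.45-fold higher in ABCA4 to at least 5.996-fold higher in RUNX1. The remaining genes of the 15 largest rises (NAV3, PER1, ABL2, ELL, MINDY1, SPOCK1 and WDR37) had a listed intron in no more than 1 DMSO library, but all 7 had exon inclusion reads in both. ABL2, a tyrosine kinase, had 1671 and 1777 of them at 25 μg/mL DRB against 67 and 142 with DMSO, and SPOCK1, a proteoglycan, 509 and 798 against 96 and 66. Of these, ELL encodes an elongation factor for RNA polymerase II, at 156 and 123 CPM against 0 and 2.34 CPM of split reads and 735 and 920 against 29 and 86 exon inclusion reads, and PER1 a clock repressor, at 238 and 180.0 CPM against 4.16 and 0 CPM, with 1004 and 1205 against 90 and 22 exon inclusion reads. CRAMP1 too had 597 and 893 such reads against 11 and 30, so an unlisted intron does not show that a gene was silent. Without replicate 2 at 25 μg/mL DRB the adjusted p of RUNX1 was 0.0629, that of PER1 0.0502 and that of MINDY1 0.0635, and without replicate 2 of DMSO that of MINDY1 was 0.0917 (limma voom).

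The 15 largest falls were genes with no listed intron in either library at 25 μg/mL DRB, and several of them, such as SMC3, TTK, KIF11, PDS5A, NDC80, NCAPG and KNTC1, act in chromosome segregation. NASP (chr1:46049518-46084576), a histone chaperone, had 0 and 0 split reads at 25 μg/mL DRB against 2307 and 2023 in DMSO cells, which is at least 6.51-fold lower by the limit above. Its exon inclusion reads were 27 and 151 at 25 μg/mL DRB against 4614 and 4046 with DMSO. SMC3, a subunit of the cohesin ring, had 13 and 137 exon inclusion reads against 2656 and 2593. TTK, a spindle checkpoint kinase, had 0 and 26 exon inclusion reads against 2276 and 2876, and KIF11, the motor that separates the spindle poles, had 0 and 0 against 2267 and 2477. CCNB2, a mitotic cyclin, was at least 7.47-fold lower, the largest such bound among the 15. PDS5A, NDC80, NCAPG, MTREX, MCMBP, GMPS, ATAD2 and SREBF1 kept their direction at the limit, whereas USP24 and KNTC1 did not. Leaving out replicate 2 at 25 μg/mL DRB ended the voom call of each of these 15 genes, with an adjusted p of 0.172 for NASP, 0.113 for SMC3 and 0.0779 for KIF11. Each of the 48 named genes called lower with no listed split reads in either library at 25 μg/mL DRB lost its call in at least 1 fit that left out a library.

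**Figure D1:**
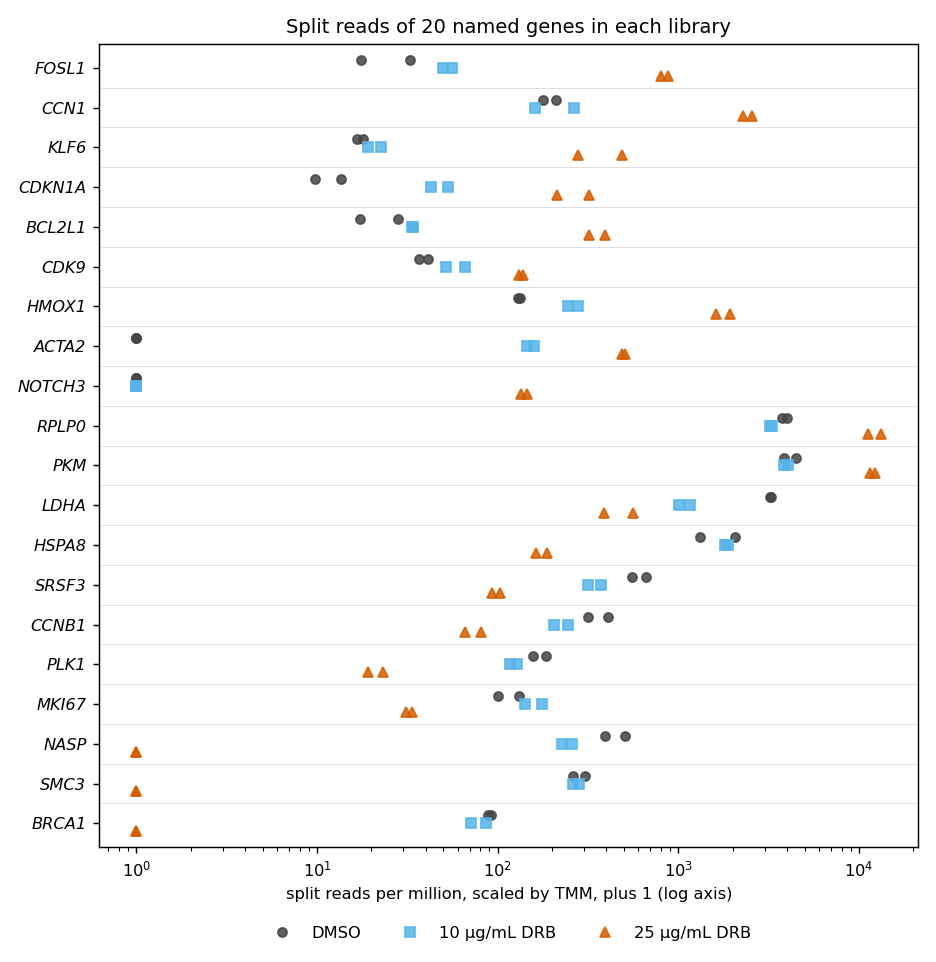
Split reads of 20 named genes in each library, in CPM after TMM scaling plus 1 on a log axis, with DMSO, 10 μg/mL DRB and 25 μg/mL DRB drawn as circles, squares and triangles. FOSL1 stands at 870.2 and 798 CPM at 25 μg/mL DRB against 16.6 and 31.9 CPM with DMSO, PLK1 at 18.1 and 22.3 CPM against 155 and 184 CPM, and points at 1 on the axis are genes with no listed intron.

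Genes of the machinery that DRB acts on moved in both directions. Of 26 tested members of the P-TEFb and pause release list 10 were higher and 11 lower, beside 20.2% higher and 41.1% lower of all genes, with a median log2 fold change of 0.29 under TMM scaling that turned to -0.20 under scaling by total reads. Of the 17 tested over introns listed in all 4 libraries 7 were higher and 3 lower, beside 29.1% higher and 30.2% lower of all genes in that set. CDK9 itself had 130 and 137 CPM in the cells at 25 μg/mL DRB against 35.7 and 40.1 CPM with DMSO, a log2 fold change of 1.82 ± 0.20 (SE, adjusted p = 0.00105, limma voom). CCNT1, the cyclin subunit of P-TEFb, had 74.7 and 109 CPM against 32.2 and 16.9 CPM. In the other direction, LARP7, which holds P-TEFb in its inactive 7SK complex, and LEO1, a subunit of the elongation factor PAF1C, had no listed intron at 25 μg/mL DRB against 62.8 and 63.0 CPM and 50.7 and 45.3 CPM with DMSO. Their calls were lost without replicate 1 (adjusted p = 0.119 and 0.12, limma voom) or replicate 2 at 25 μg/mL DRB.

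Other kinases of the cycle also moved both ways, as did all genes, of which 20.2% were higher and 41.1% lower. Of 16 transcription-cycle kinases and cyclins 5 rose and 9 fell, with a median of -1.56, but over introns listed in all 4 libraries 4 of 10 rose and 3 fell, and the median turned to 0.32. CCNK, the cyclin partner of CDK12 and CDK13, had 349.7 and 260.5 CPM at 25 μg/mL DRB against 44.2 and 42.4 CPM with DMSO, while CDK12, which sustains expression of long DNA repair genes, had no listed intron against 45.7 and 41.3 CPM. The fall of CDK12 did not keep its direction at the limit, but its exon inclusion reads were 24 and 73 against 427 and 418. Without replicate 1 or 2 at 25 μg/mL DRB the adjusted p of CDK12 was 0.137 and 0.228 (limma voom). CDK11B, a kinase linked to splicing, rose by 1.59 ± 0.10 on the log2 scale. POLR2A, the largest subunit of RNA polymerase II, had 181 and 111 CPM at 25 μg/mL DRB against 172 and 130 CPM with DMSO, and its log2 difference of -0.14 ± 0.26 did not pass the test (adjusted p = 0.657, limma voom). Of the 12 subunits 3 rose, among them the small subunit POLR2L at 421 and 510.2 CPM against 110.2 and 147 CPM, and 4 fell, and over introns listed in all 4 libraries 2 rose and 6 fell. Among all genes over such introns 29.1% rose and 30.2% fell.

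Short-lived and immediate early transcripts formed the list with the highest median. Of 31 tested members 22 were higher and 4 lower, with a median log2 fold change of 2.90 against -1.01 over all genes, and over introns listed in all 4 libraries 15 of 18 were higher and none lower, with 2.19 against -0.02. Among all genes 20.2% were higher and 41.1% lower, and over introns listed in all 4 libraries 29.1% were higher and 30.2% lower. FOSL1 (chr11:65659520-65668044), a subunit of the AP-1 transcription factor, had 870.2 and 798 CPM in the cells at 25 μg/mL DRB against 16.6 and 31.9 CPM with DMSO, a rise of 5.13 ± 0.30 on the log2 scale (adjusted p = 0.000541, limma voom). At 10 μg/mL it had 54.7 and 48.6 CPM, far closer to DMSO than to the higher dose. KLF6, a zinc finger factor induced by stress, had 486 and 276 CPM against 15.7 and 16.9 CPM, and ATF3, another stress-induced factor, 45.1 and 44.5 CPM against no listed intron. PPP1R15A, which resets eIF2α after stress, had 89.8 and 61.7 CPM against 1.97 and 3.70 CPM. KLF2, a zinc finger factor, and the antiproliferative gene BTG1 ran the other way and were unlisted at 25 μg/mL DRB, KLF2 against 7.66 and 7.98 CPM with DMSO. Without replicate 2 at 25 μg/mL DRB, 16 members of the list stayed higher and none was called lower, and the adjusted p of ATF3 was 0.0566 and that of KLF2 0.283 (limma voom).

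CDKN1A, MDM2 and BBC3, which act in growth control and apoptosis, were higher as well. CDKN1A (chr6:36644237-36655114) encodes the cyclin-dependent kinase inhibitor p21 and had 211 and 319 CPM in the cells at 25 μg/mL DRB against 8.75 and 12.6 CPM with DMSO, a rise of 4.64 ± 0.59 on the log2 scale. MDM2, a ubiquitin ligase, had 168 and 175 CPM against 42.2 and 39.5 CPM. Its level at 10 μg/mL was 224 and 185 CPM, and the doses did not differ by the test (adjusted p = 0.194, limma voom). BBC3, which encodes the pro-apoptotic protein PUMA, had 38.0 and 38.9 CPM at 25 μg/mL DRB and no listed intron with DMSO, with an adjusted p of 0.0546 without replicate 2 at 25 μg/mL DRB (limma voom). POLH, a DNA polymerase that bypasses lesions, and FAS, a death receptor, were called lower and unlisted at 25 μg/mL DRB, and neither kept its direction at the limit.

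In the BCL2 family, which sets the threshold of apoptosis, 4 of 11 genes rose and BOK fell, beside 20.2% higher and 41.1% lower of all genes. BCL2L1, which encodes the anti-apoptotic BCL-XL, had 391 and 321 CPM at 25 μg/mL DRB against 16.4 and 27.0 CPM with DMSO. MCL1, a short-lived anti-apoptotic member, had 148 and 134 CPM against 52.3 and 65.0 CPM, a call that did not hold over introns listed in all 4 libraries (adjusted p = 0.0667, limma voom). BIRC2, an inhibitor of apoptosis counted with the NF-κB list, had 356 and 370.2 CPM against 41.3 and 63.2 CPM. Of the 21 NF-κB factors and targets 9 rose and 3 fell. The YAP target list rose in 11 of 17 genes and fell in 4, and its best known member CCN1 had 2568 and 2282 CPM against 208 and 177 CPM.

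Most transcripts of the translation and energy machinery rose. Of 79 cytosolic ribosomal protein genes, whose messages are known to be long-lived, 76 were higher and none lower, with a median log2 fold change of 1.39. Over introns listed in all 4 libraries 73 were higher and none lower, so the listing minimum bears little on this list. RPLP0 (chr12:120634502-120639038), of the ribosomal stalk, had 11200 and 13262 CPM in the cells at 25 μg/mL DRB against 3749 and 4016 CPM with DMSO, a log2 fold change of 1.66 ± 0.10. RPLP2 reached 6354 and 8049 CPM against 1531 and 1496 CPM, and RPS6, with the smallest rise of the named members, 2853 and 3512 CPM against 1556 and 1651 CPM. Oxidative phosphorylation genes were higher in 49 of 75 cases and lower in 9, at a median of 0.93. Over introns listed in all 4 libraries 45 of 74 of them were higher and 14 lower, at 0.68. Among all genes 20.2% were higher and 41.1% lower, and over introns listed in all 4 libraries 29.1% were higher and 30.2% lower. COX6A1, a subunit of cytochrome c oxidase, had 668 and 706 CPM against 176 and 205 CPM, whereas SDHA, the flavoprotein of complex II, had 11.0 and 57.1 CPM against 263 and 272 CPM. Scaled by total reads, the ribosomal list gave 68 higher genes and 1 lower, and the oxidative phosphorylation list 37 and 15.

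Of 16 glycolysis genes 12 rose and 2 fell, at a median of 1.07, while 20.2% of all genes rose and 41.1% fell, at a median of -1.01. PKM, the pyruvate kinase of glycolysis, had 11477 and 12267 CPM in the cells at 25 μg/mL DRB against 3829 and 4493 CPM with DMSO. LDHA (chr11:18416107-18429972), which turns pyruvate into lactate, fell by 2.78 on the log2 scale, to 384 and 563 CPM against 3271 and 3226 CPM (SE 0.17, adjusted p = 0.000541, limma voom). LDHA stood between at 10 μg/mL, with 1156 and 1003 CPM. NRF2 targets were higher in 16 of 28 cases and lower in 6. HMOX1, which degrades haem, had 1619.7 and 1924 CPM against 132 and 128 CPM, and NQO1, which is abundant in this KEAP1-mutant line, 2533 and 2444 CPM against 1479.5 and 1288 CPM. In contrast, GCLC, the rate-limiting enzyme of glutathione synthesis, had no listed intron at 25 μg/mL DRB against 113 and 92.4 CPM, at least 1.98-fold lower by the limit. Without replicate 1 at 25 μg/mL DRB its adjusted p was 0.0932 (limma voom).

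Genes that drive division and copy DNA were lower. Of 36 cell cycle and mitosis genes 31 fell and 2 rose, with a median log2 fold change of -3.28, and over introns listed in all 4 libraries 19 of 23 fell, with -1.89 against -0.02 over all genes. Of all genes 41.1% fell and 20.2% rose, and over introns listed in all 4 libraries 30.2% fell and 29.1% rose. CCNB1, the main mitotic cyclin, had 64.5 and 79.7 CPM in the cells at 25 μg/mL DRB against 316 and 408 CPM with DMSO, a log2 fold change of -2.29 ± 0.25. PLK1, a kinase of mitotic entry, had 18.1 and 22.3 CPM against 155 and 184 CPM, and MKI67, the proliferation marker, 32.5 and 30.04 CPM against 130 and 99.2 CPM. MKI67 at 10 μg/mL stood at 176 and 140.2 CPM, above the DMSO values. The 2 rises were the G1 cyclins CCND1, with 166 and 153 CPM against 80.3 and 79.4 CPM, and CCNE1, with 67.9 and 74.8 CPM against 25.4 and 40.1 CPM. The call on CCNE1 was lost without replicate 2 at 25 μg/mL DRB (adjusted p = 0.0545, limma voom) and without replicate 1 of DMSO, and under scaling by total reads (adjusted p = 0.0737). Without replicates 1 and 2 at 25 μg/mL DRB, in turn, the list gave 25 and 18 falls.

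Of 37 DNA replication genes 26 fell and 4 rose, at a median of -1.96, and over introns listed in all 4 libraries 12 of 23 fell and 2 rose, at -0.61. For comparison, 41.1% of all genes fell and 20.2% rose, at a median of -1.01. Over introns listed in all 4 libraries 30.2% of all genes fell and 29.1% rose, at -0.02. Scaled by total reads 29 DNA replication genes fell and none rose. CDC6, which licenses origins, had 0 and 6 split reads at 25 μg/mL DRB against 518 and 621 with DMSO. The helicase subunit MCM2 was less affected, with 107 and 122 CPM against 208 and 205 CPM, and TYMS, the thymidylate synthase, was higher, with 516 and 591 CPM against 320.2 and 359 CPM, a call that was lost under scaling by total reads (adjusted p = 0.104, limma voom). In homologous recombination and the Fanconi pathway, a set of mostly long genes known for their dependence on CDK12, 22 of 25 tested genes were lower, none was higher, and 13 of the falls had no listed intron in either library at 25 μg/mL DRB. BRCA1 had 0 and 0 split reads against 398 and 465, and 0 and 11 exon inclusion reads against 820 and 947. Spread over its many introns, 10 unlisted reads each would leave BRCA1 at least 1.03-fold lower. None of the falls in this list exceeded 2-fold at that limit, 2 of its genes could be tested over introns listed in all 4 libraries, and 7 and 2 falls remained called without replicates 1 and 2 at 25 μg/mL DRB.

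**Figure D2:**
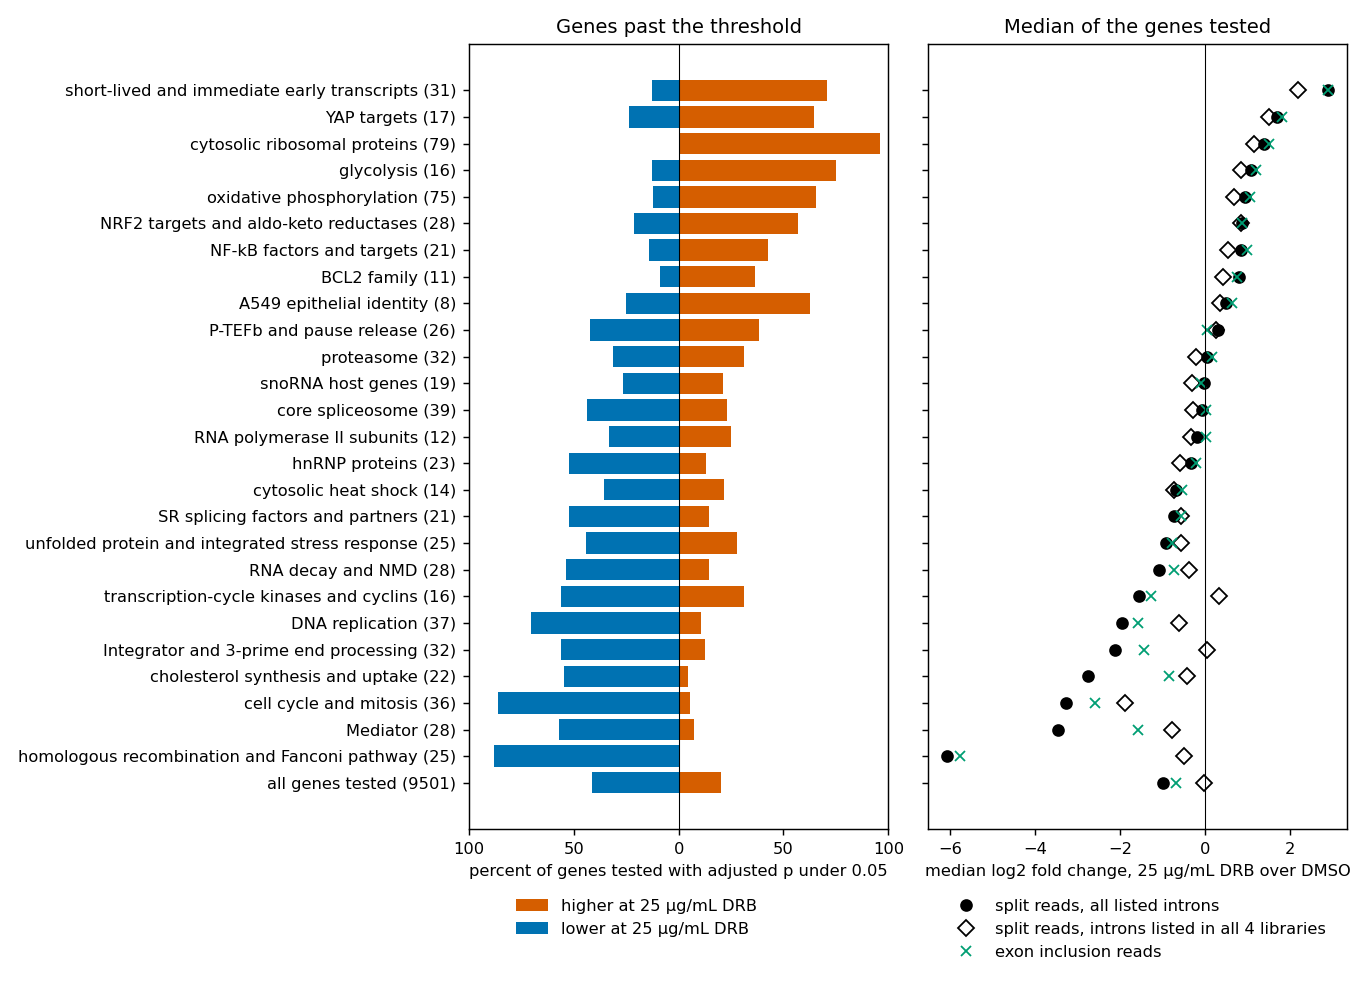
Gene lists in the cells at 25 μg/mL DRB against DMSO, with the number of genes tested in parentheses. Left, the percent of genes higher and lower at an adjusted p of 0.05, and right, the median log2 fold change over all listed introns, over introns listed in all 4 libraries and by exon inclusion reads. The ribosomal list, with 76 of 79 genes higher, lies right of all genes tested, and the cell cycle list, with 31 of 36 lower, lies left of them by each of the 3 measures.

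Large complexes of transcription and RNA processing were lower more often than higher, as were 41.1% of all genes against 20.2% higher. Mediator, which links activators to the polymerase, fell in 16 of 28 genes and rose in 2, MED15 and MED26, at a median of -3.47. Over introns listed in all 4 libraries 5 of 9 Mediator genes fell and 1 rose, and 5 and 2 falls remained without replicates 1 and 2 at 25 μg/mL DRB. Integrator and 3′ end processing genes fell in 18 of 32 cases and rose in 4, at a median of -2.13, but over introns listed in all 4 libraries 5 of 16 fell and 3 rose, at a median of 0.04. Without replicates 1 and 2 at 25 μg/mL DRB the list gave 9 and 5 falls. The risers included PCF11, a termination factor, with 78.9 and 55.8 CPM against 26.9 and 13.0 CPM, and CLP1, with 41.8 and 52.8 CPM against 5.91 and 6.42 CPM. PCF11 missed the threshold without replicate 2 of DMSO (adjusted p = 0.0609, limma voom). RNA decay and nonsense-mediated decay genes fell in 15 of 28 cases and rose in 4, among them UPF1, the central helicase of nonsense-mediated decay, with 162 and 169 CPM against 96.7 and 98.5 CPM. The call on UPF1 was lost under scaling by total reads (adjusted p = 0.0864, limma voom). Of 18 decay genes tested over introns listed in all 4 libraries 7 fell and 4 rose. In that set of introns 30.2% of all genes fell and 29.1% rose.

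Splicing factors were lower more often than higher, by shares that lay near those of all genes for the core spliceosome. Of 21 SR proteins and partners 11 fell and 3 rose, of 23 hnRNP proteins 12 fell and 3 rose, and of 39 core spliceosome genes 17 fell and 9 rose, 43.6% and 23.1% beside 41.1% and 20.2% of all genes. Over introns listed in all 4 libraries 10 SR genes fell and 3 rose of 19, 14 hnRNP genes fell and 1 rose of 22, and 16 core spliceosome genes fell and 7 rose of 37. Among all genes tested in this way 30.2% fell and 29.1% rose. SRSF3 (chr6:36562130-36573377), an SR protein that binds exonic enhancers, had 92.0 and 102 CPM in the cells at 25 μg/mL DRB against 553 and 661 CPM with DMSO, a log2 fold change of -2.63 ± 0.19. HNRNPDL fell to 64.1 and 70.8 CPM against 346 and 315 CPM, and at 10 μg/mL it was already at 79.9 and 58.1 CPM. SRRM2, a large scaffold of nuclear speckles, rose to 493 and 391 CPM against 135 and 93.6 CPM, and SF3B4 rose to 344 and 329 CPM against 78.5 and 98.1 CPM. SF3B1, the subunit that contacts the branch point region, differed by -0.05 ± 0.09 on the log2 scale, which did not pass the test (adjusted p = 0.647, limma voom). Under scaling by total reads 17 hnRNP genes were lower and 1 was higher.

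The stress and housekeeping lists held both rises and falls, as did all genes, of which 20.2% were higher and 41.1% lower. Near these shares lay the unfolded protein and integrated stress response, at 28% and 44%, and the heat shock genes, at 21.4% and 35.7%. The proteasome had 10 rises and 10 falls among 32 genes, the unfolded protein and integrated stress response 7 and 11 among 25, the cytosolic heat shock genes 3 and 5 among 14, and the snoRNA host genes 4 and 5 among 19. Over introns listed in all 4 libraries falls outnumbered rises in each, with 5 rises and 13 falls in the proteasome, 6 and 9 in the unfolded protein and integrated stress response, 2 and 8 in the heat shock genes and 4 and 8 in the snoRNA hosts. Among all genes tested in this way 29.1% were higher and 30.2% lower. Scaled by total reads the same lists gave 4 and 18, 7 and 14, 2 and 8 and 4 and 9. HSPA8 (chr11:122928197-122933938), the constitutive Hsc70 chaperone, fell to 162 and 187 CPM at 25 μg/mL DRB against 1319.6 and 2055 CPM with DMSO, while it stood at 1804 and 1888 CPM at 10 μg/mL. HSP90AA1 ran opposite to it, with 7855 and 8339.9 CPM against 2737 and 4220.0 CPM. Cholesterol synthesis and uptake genes fell in 12 of 22 cases and rose in 1, MSMO1, at a median of -2.76 that was -0.43 over introns listed in all 4 libraries. MSMO1 lost its call without either DMSO library (adjusted p = 0.0785 and 0.0895, limma voom).

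The lower dose was much closer to DMSO. At 10 μg/mL DRB 786 genes were higher and 625 lower than with DMSO, in a comparison that shares its DMSO libraries with the one above. Between the doses, 25 against 10 μg/mL, 6013 of the 9501 genes (63.3%) were called, 1859 higher and 4154 lower, and over introns listed in all 4 libraries 1478 and 1585. Of the 902 genes called against DMSO at both doses, 295 differed in direction, 157 of them higher at 25 and lower at 10 μg/mL.

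Long genes were lower more often than short ones. Of genes spanning under 5 kb, 33.7% were higher and 22.8% lower at 25 μg/mL DRB than with DMSO, whereas of genes spanning 100 kb or more 14.0% were higher and 50.9% lower. Over introns listed in all 4 libraries the median log2 fold change was 0.40 in the shortest genes, 0.10 from 5 to 20 kb, -0.09 from 20 to 50 kb, -0.20 from 50 to 100 kb and 0.00 in the longest. The decline with length seen over all listed introns thus did not run on beyond 100 kb among introns that passed the listing minimum everywhere.

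Inclusion of exons changed in both directions at 25 μg/mL DRB, with poison exons and other normally skipped exons of SRSF3, HNRNPDL and PDCD6 gained. Exons of KHSRP, STAT3 and RPL5 with no skipping read listed in DMSO cells were partly skipped. The level of inclusion, Ψ, was taken as inc/(inc + 2 exc), since an included exon gives reads at both of its junctions, and was tested with a quasi-binomial model moderated by limma. Of 10875 exons in 2591 genes 5558 (51.1%) passed an adjusted p of 0.05, 836 with more inclusion and 4722 with less. With overlapping exons counted once, 502 of 5526 exons were more and 2342 less included, with a median difference in Ψ of -0.07. Much of this imbalance follows from the filter: 4573 exons had no skipping read listed in DMSO and could only fall, which 3592 did, while the 6302 exons with skipping reads in DMSO gave 836 gains and 1130 losses. Some of the 6302 had no inclusion read listed in DMSO and could only rise. Among 582 exons with at least 10 reads of each kind in every library, 41 gained and 100 lost inclusion (24.2%) in this fit of all 10875 exons. Tested on their own, 17 of the 582 gained and 54 lost inclusion. With any 1 of the 4 libraries at 25 μg/mL DRB or with DMSO left out, the quasi-binomial test called 0 exons, with 3366 to 5016 at an unadjusted p under 0.05, while limma on log odds called 3704 to 4681 in these fits.

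Over 22141 exons whose Ψ denominator reached 30 in each library, the share of skipping was 3.74% and 3.23% at 25 μg/mL DRB against 2.22% and 2.29% with DMSO. It was 2.32% and 2.26% at 10 μg/mL, next to the DMSO values. Exons with Ψ under 0.95 made up 12.6% and 11.1% of them at 25 μg/mL DRB against 4.15% and 4.41% with DMSO. Replicates differed by a median of 4.29 points of Ψ at 25 μg/mL DRB and 3.33 points with DMSO over 279 exons with reads of both kinds, against a median difference of 6.34 points between these groups. The spread between replicates was thus not far below the typical difference. At 10 μg/mL the same exons differed from DMSO by a median of 6.13 points and between replicates by 3.63 points.

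Splice sites of 6 of these exons, taken from the GRCh37 genome, are shown because the exons differ in what precedes them. Each acceptor has the last 20 bases of the upstream intron and 3 exonic bases, each donor 3 exonic bases and the first 6 of the downstream intron, 5′ to 3′ on the gene's strand, with the terminal intronic bases in capitals.
SRSF3 acceptor, chr6:36567578-36567600, plus strand: aaaaatgaaccccgttacAGagt
SRSF3 donor, chr6:36568051-36568059: ctaGTaagt
HNRNPDL acceptor, chr4:83346818-83346840, minus strand: accttgtttgtacccgccAGcgg
HNRNPDL donor, chr4:83346710-83346718: gtgGTatgg
PDCD6 acceptor, chr5:313796-313818, plus strand: cttcttctttcttgagacAGacc
PDCD6 donor, chr5:313963-313971: aggGTattt
KHSRP acceptor, chr19:6420153-6420175, minus strand: ctccttctttctccatccAGtca
KHSRP donor, chr19:6420078-6420086: cagGTataa
STAT3 acceptor, chr17:40490828-40490850, minus strand: tgtttgcttattttaaacAGgat
STAT3 donor, chr17:40490743-40490751: gagGCaagt
RPL5 acceptor, chr1:93298926-93298948, plus strand: aacattcttttttctttaAGggg
RPL5 donor, chr1:93299013-93299021: gagGTactg
Of the 18 bases before the AG, pyrimidines made up 44.4% in SRSF3, 72.2% in HNRNPDL and 77.8% in PDCD6, exons that gained inclusion, against 94.4% in KHSRP, 66.7% in STAT3 and 77.8% in RPL5, exons that lost it. The STAT3 donor starts with GC in place of the usual GT. Over annotated exons tested, with overlapping exons counted once, the median share of pyrimidines was 72.2% before 467 more included exons, 77.8% before 2242 less included exons and 77.8% before 2517 exons that were not called, and the median GC content was 55.7%, 46.2% and 50.8% in the same order. An AG preceded 86.5%, 97.95% and 91.9% of them, so not every window lies at such an acceptor. With at least 10 reads of each kind in every library, the median pyrimidine shares were 72.2%, 77.8% and 72.2%.

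The SRSF3 exon (chr6:36567598-36568053, 456 nt) is a known poison exon, whose inclusion brings a premature stop codon into the message. It had 54 and 104 reads for inclusion and 9 and 16 for skipping in the cells at 25 μg/mL DRB, against 15 and 21 for inclusion and 491 and 735 for skipping with DMSO. Its Ψ was thus 0.75 and 0.76 at 25 μg/mL DRB against 0.015 and 0.014 with DMSO (adjusted p = 0.00949, quasi-binomial model with limma, the lowest value that any exon reached). With 10 μg/mL DRB it was 0.039 and 0.022, next to the DMSO values. The inclusion reads rose in number although split reads of the whole gene were several-fold fewer. The coding exon of SRSF3 at chr6:36569739-36569817 moved the other way in the same test, with Ψ of 0.21 and 0.41 against 1.00 and 1.00.

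HNRNPDL, which is known to control its own message by splicing in its 3′ part, gained a 105 nt exon beyond the coding range (chr4:83346716-83346820). Inclusion reads were 29 and 52 and skipping reads 0 and 6 at 25 μg/mL DRB, against 4 and 6 inclusion and 195 and 174 skipping reads with DMSO. Ψ was 1.00 and 0.81 at 25 μg/mL DRB against 0.010 and 0.017, and at 10 μg/mL it was intermediate, at 0.37 in both libraries. The 94 nt exon of HNRNPF (chr10:43892633-43892726), upstream of the coding range, had Ψ of 1.00 and 1.00 against 0.11 and 0.15, and was likewise intermediate at 10 μg/mL with 0.51 and 0.42. HNRNPH1 gained a 134 nt exon (chr5:179048844-179048977), with Ψ of 0.29 and 0.19 against 0 and 0. SON, a protein of nuclear speckles, gained an 80 nt exon (chr21:34944857-34944936) with Ψ of 1.00 and 0.73 against 0 and 0, from no more than 16 inclusion reads per library.

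Several exons gained inclusion in genes outside RNA processing. They were picked for their low p after the values were seen, as were the SRSF3 exon above and the KHSRP, STAT3, RPL5, RAB1A and SNRPA1 exons below. PDCD6, a calcium-binding adaptor, gained a 150 nt exon (chr5:313816-313965) with Ψ of 0.81 and 0.83 at 25 μg/mL DRB against 0.022 and 0.036 with DMSO, and 0.19 in both libraries at 10 μg/mL. CSNK1D, casein kinase 1δ, gained a 247 nt exon (chr17:80229946-80230192), with Ψ of 0.73 and 0.56 against 0 and 0. In CD44, a hyaluronan receptor with a run of variable exons, the exon at chr11:35222629-35222742 had 196 and 222 inclusion and 103 and 167 skipping reads against 0 and 0 inclusion and 228 and 260.0 skipping reads. A listed 0 can hide up to 2 reads, so the CD44 exon was at most barely included in DMSO cells. Each of these gains kept its call by limma on log odds without any 1 of the 6 libraries, with adjusted p values from 0.00409 to 0.0145 for SRSF3, HNRNPDL, PDCD6, CSNK1D and CD44.

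Exons that were skipped at 25 μg/mL DRB include ones with no skipping read listed in DMSO cells. KHSRP, a protein of AU-rich element decay and splicing, had a 72 nt exon (chr19:6420084-6420155) with 92 and 145 skipping reads at 25 μg/mL DRB against none listed with DMSO, at 79 and 209 inclusion reads against 365 and 320. Its Ψ was 0.30 and 0.42 against 1.00 and 1.00, and 0.92 and 0.90 at 10 μg/mL. The 82 nt exon of STAT3 (chr17:40490749-40490830), in the message of a signal-dependent transcription factor, had Ψ of 0.25 and 0.33 against 1.00 and 1.00, with no skipping listed at 10 μg/mL either. RPL5 shows the same at high coverage, since its 70 nt exon (chr1:93298946-93299015) had 64 and 172 skipping reads beside 597 and 1463 inclusion reads at 25 μg/mL DRB, against none beside 1605 and 1887 with DMSO. Its Ψ of 0.82 and 0.81 against 1.00 and 1.00 has 10 μg/mL in between, at 0.91 and 0.90. SNRPA1, a protein of the U2 snRNP, had Ψ of 0.11 and 0.13 for a 148 nt exon (chr15:101833230-101833377) against 0.93 and 0.92. RAB1A, a small GTPase of vesicle transport, had Ψ of 0.34 and 0.43 for a 96 nt exon (chr2:65318117-65318212) against 1.00 and 1.00. These 5 calls held in every fit of limma on log odds without 1 library.

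Among exons with at least 10 reads of each kind in every library, to which the filter gave no direction, the largest difference was a loss, in MORF4L2. NME1, a nucleoside diphosphate kinase, had 236 and 305 skipping reads at 25 μg/mL DRB against 10 and 20 with DMSO for its 171 nt exon (chr17:49239089-49239259), at Ψ of 0.42 and 0.57 against 0.97 and 0.95. At 10 μg/mL the Ψ of NME1 was already 0.46 and 0.57, and a difference between the doses did not pass the test (adjusted p = 0.99, quasi-binomial model with limma). MORF4L2, a subunit of an acetyltransferase complex, had Ψ of 0.21 and 0.36 for a 122 nt exon (chrX:102933427-102933548) against 0.85 and 0.82, with 0.55 and 0.59 at 10 μg/mL. MAGOH, a core protein of the exon junction complex, had 0.34 and 0.38 for an exon of 531 nt against 0.77 and 0.85, and NCOA4, the ferritin autophagy receptor, 0.41 and 0.53 for a 155 nt exon against 0.88 and 0.88. ELOC, an elongin subunit, had the largest gain of this set, with Ψ of 0.77 and 0.61 for a 139 nt exon against 0.21 and 0.19, and missed the threshold of limma on log odds without replicate 2 of DMSO (adjusted p = 0.0511).

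Exons of RNA-binding proteins were counted by list, with overlapping exons counted once. Among exons with skipping reads in DMSO, 6 were more and 4 less included of 20 in SR genes, 9 and 12 of 51 in hnRNP genes, 2 and 6 of 23 in core spliceosome genes and 7 and 11 of 63 in ribosomal protein genes, beside 502 and 580 of 3284 among all exons. Some of these exons had no inclusion read listed in DMSO and could only rise, among them the gained exons of BUD31 and SF3B1 in the core spliceosome. With the exons that could only fall, the less included numbered 11 of 27, 37 of 77, 20 of 38 and 37 of 103 in the same lists, beside 2342 of 5526. The difference between a list and all exons was not tested. Within the core spliceosome, the 99 nt exon of U2AF1 (chr21:44515548-44515646) had Ψ of 0.53 and 0.69 at 25 μg/mL DRB against 1.00 and 1.00, and the 119 nt exon of SF3B6 (chr2:24296946-24297064) had 0.48 and 0.63 against 0.97 and 0.96. SRSF10 gained a 363 nt exon, with Ψ of 0.71 and 0.53 against 0.098 and 0.056. At 10 μg/mL DRB, in a comparison that shares its DMSO libraries, 0 exons gained and 1 lost inclusion by the same test. This count does not show that inclusion stayed the same, since the median difference given above was near that at 25 μg/mL.

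**Figure D3:**
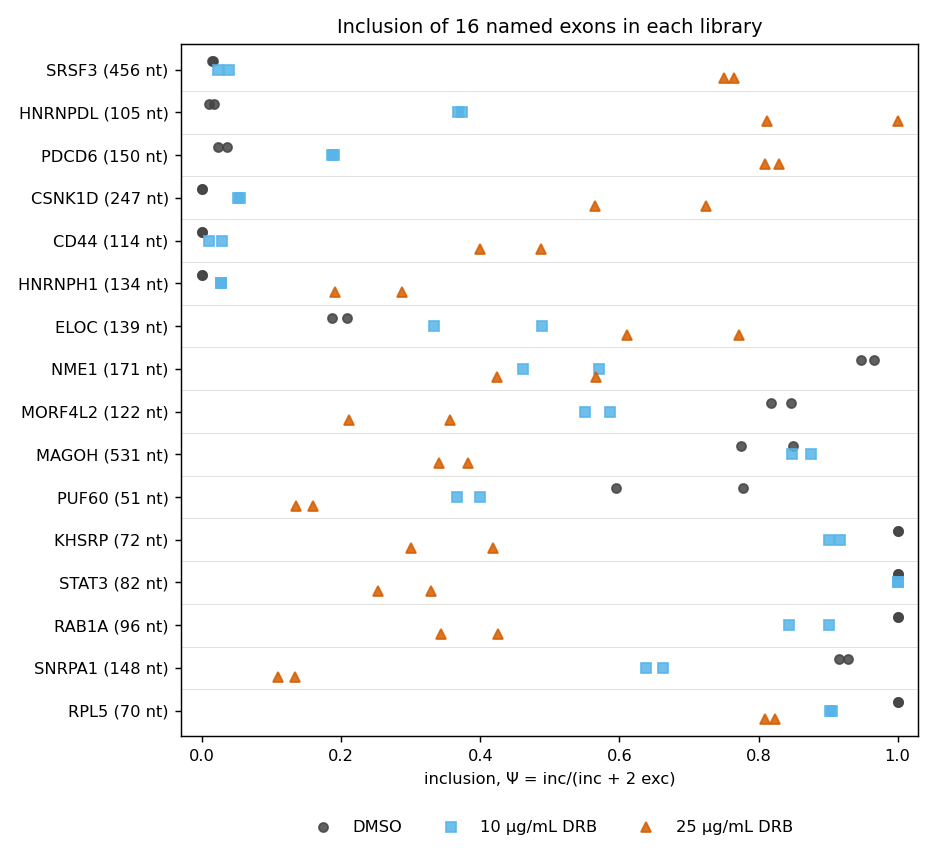
Inclusion of 16 named exons in each library, as Ψ from 0 to 1, with DMSO, 10 μg/mL DRB and 25 μg/mL DRB drawn as circles, squares and triangles and the exon length beside the gene. The SRSF3 exon lies at 0.75 and 0.76 at 25 μg/mL DRB against 0.015 and 0.014 with DMSO, the KHSRP exon at 0.30 and 0.42 against 1.00 and 1.00, and the NME1 exon at 10 μg/mL DRB lies with the higher dose.

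Unspliced reads gave fewer calls. Over 30693 annotated introns listed in all 6 libraries, the unspliced share was 5.05% and 4.17% at 25 μg/mL DRB against 3.99% and 3.67% with DMSO, and 4.41% and 3.54% at 10 μg/mL. The spread between replicates at 25 μg/mL DRB was thus no smaller than the difference between the means of that group and DMSO. Of 6731 introns tested, 521 had a higher and 238 a lower unspliced share (11.3% in all), and 2216 had an unadjusted p under 0.05. Leaving out any 1 of the 6 libraries left 0 calls by the quasi-binomial model, and limma on log odds gave 0 calls without any 1 of the libraries at 25 μg/mL DRB or with DMSO. By exon, reads across a boundary without splicing were higher at 303 and lower at 158 of 19867 exons (2.32%), of which 0 to 6 remained without 1 library.

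The introns with the largest differences went from mostly split to mostly unspliced reads or the reverse. Only split reads of the intron itself enter this share, so reads spliced over it by another junction are left out. In CLUH, which binds messages of mitochondrial proteins, the intron at chr17:2600237-2601189 had 51 and 85 unspliced reads beside 12 and 18 split reads at 25 μg/mL DRB, 81.0% and 82.5% unspliced, against none beside 20 and 28 with DMSO. POLR2B, the other large subunit of RNA polymerase II, had 84.8% and 73.3% unspliced reads at its 81 nt intron (chr4:57889747-57889827) against 0% and 0%, and 11.7% and 5.21% at 10 μg/mL. TARDBP, whose product TDP-43 controls its own message through its 3′ end, had 82.1% and 69.4% at an intron of 1524 nt (chr1:11080657-11082180) against 0% and 0%, with 11.6% and 17.9% at 10 μg/mL. In the opposite direction, an intron of 369 nt in HNRNPDL (chr4:83346821-83347189) had 0% and 6.82% unspliced reads at 25 μg/mL DRB against 90.5% and 87.8% with DMSO. This intron adjoins the HNRNPDL exon that was gained, and at 10 μg/mL it had 66.7% and 68.0%. The 195 and 174 DMSO reads that skip this exon are also spliced over the intron but are not in the share, so the values do not show that most transcripts kept it. Likewise an intron of 507 nt in PRPF4B, a kinase of the spliceosome (chr6:4061382-4061888), had 10.0% and 0% against 97.4% and 92.6%. In CSNK1E, casein kinase 1ε, an intron (chr22:38692693-38694790) had 3 and 3 unspliced beside 12 and 10 split reads against 61 and 41 beside 5 and 3. SRSF1 behaved in the same way beyond its coding range, where the exon at chr17:56081163-56081362 had 5 and 8 unspliced beside 35 and 42 spliced reads against 162 and 119 beside 21 and 15. The remaining introns named by size rose in ZC3H18, TRIO, ZDHHC7, MTA2 and NAP1L4 and fell in LAMB2, WTAP, KIF18B, CDV3 and KLHL17, with no overlap between the groups.

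**Figure D4:**
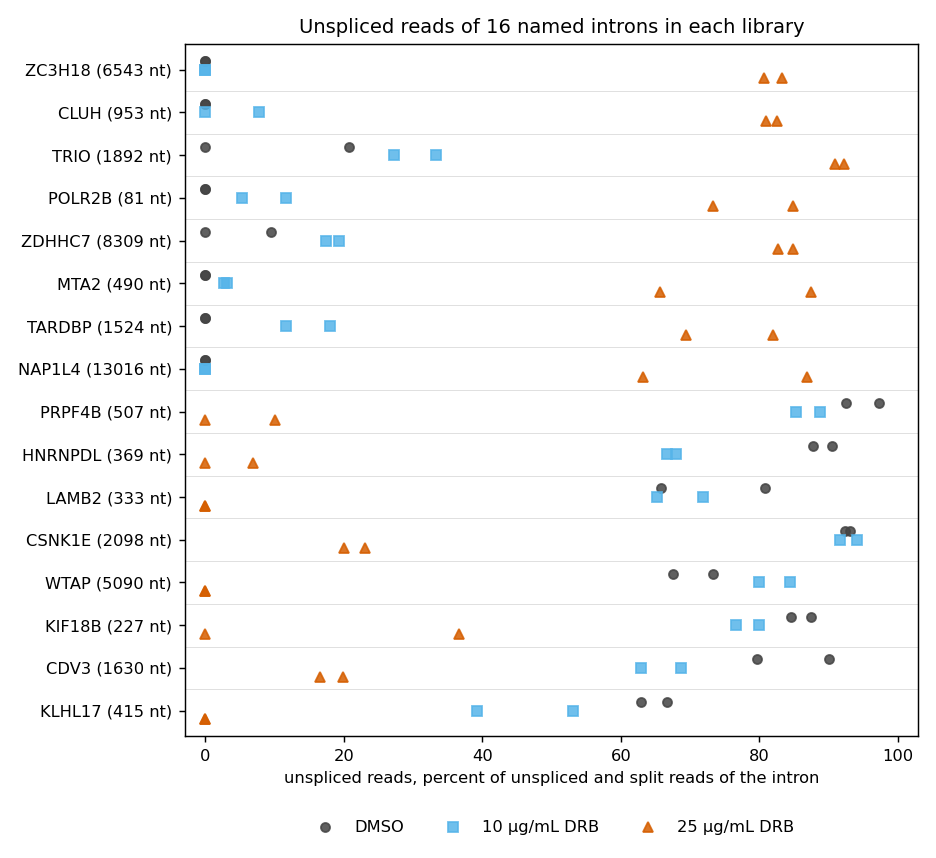
Unspliced reads as a percent of unspliced and split reads at 16 named introns in each library, with DMSO, 10 μg/mL DRB and 25 μg/mL DRB drawn as circles, squares and triangles. The POLR2B intron lies at 84.8% and 73.3% at 25 μg/mL DRB against 0% and 0% with DMSO, and the PRPF4B intron at 10.0% and 0% against 97.4% and 92.6%.

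In genes that kept reads everywhere, split reads did not shift in general between the 5′ and 3′ parts. Only introns listed in all 6 libraries entered, with at least 30 reads per part in each library. Genes whose reads fell below these minima were left out, and the reads came from spliced poly(A) RNA. The comparison therefore cannot show whether transcription along the gene body changed. Among 1829 genes with enough reads, the median percent of split reads on introns nearer the 5′ end than the middle of the gene was 39.2% and 40.4% at 25 μg/mL DRB against 39.2% and 39.6% with DMSO. In the 140 genes spanning 100 kb or more it was 23.8% and 25.4% against 25.5% and 25.0%. A changed share was called in 6 genes (0.328%), with 209 at an unadjusted p under 0.05. RAB1A had 69.3% and 66.2% of its split reads early at 25 μg/mL DRB against 26.3% and 28.8% with DMSO, and SRSF3 66.8% and 64.1% against 44.1% and 43.1%. Both genes also changed the exons described above. RPS3A and ASPH rose by 4.81 and 3.67 points, and VMP1 and CDV3 were lower, VMP1 with 24.6% and 29.4% against 42.6% and 48.9%. No gene was called without either DMSO library, whereas 21 and 17 were called without replicates 1 and 2 at 25 μg/mL DRB.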

How the data were processed

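Poly(A) RNA of A549 cells was sequenced by the authors with reads of 75 bases, aligned to GRCh37 (hg19) with STAR (version 2.7.3a in the submitters' processing notes, whereas the methods of the study name another version) and counted per exon and intron with the IPSA pipeline. The values that the authors deposited are raw counts held in a text field (of other type than a plain count column), and nothing in the files points to scaling. Genes were assigned with GENCODE mapped to GRCh37 and introns shared between genes were left out of gene sums.

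Tests ran in R 4.3.3 with limma 3.58.1 over 6 libraries (DMSO and both DRB doses, 2 each), with Benjamini-Hochberg adjustment over all features and a threshold of 0.05. Genes needed at least 10 split reads in 2 libraries and 15 over the fit. They were scaled by TMM, written for this work, and tested by voom, as a linear model on log2 values. Exons entered with a denominator of Ψ that reached 10 in each library and with 10 inclusion and 10 skipping reads or more over the fit, and the quasi-binomial spread was moderated by limma with a floor of 1. The scripts were tested on simulated data. An exact permutation test of 2 against 2 libraries cannot go below 0.333 and was not used. Named genes were the 15 largest rises and falls among genes of at least 50 CPM, the key genes of each list and its 2 largest rises and falls. Named exons and introns were the 8 largest in each direction. The members and lists were chosen with earlier results of these data known. Some genes and gene lists are not reported here. Alternatives changed scaling, filter, libraries, intron set, measure and test. Counting intervals cover counting error only, and depth is given per library in the results.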

Additional observations from a re-analysis of the deposited data

Results flagged for a closer look

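At 25 and 10 μg/mL DRB, compared with the same DMSO libraries, 6 of 170 named genes passed the test against DMSO at both doses in opposite directions, and each also differed between the doses by limma voom. Between the doses the log2 change of GAPDH against DMSO differed by 1.91, being 1.38 at 25 μg/mL and -0.54 at 10 μg/mL (adjusted p = 0.000387). VIM differed by 1.86, from changes of 1.33 and -0.54, KRT8 by 1.53, from 0.60 and -0.93, and HNRNPL by 2.19, from 0.49 and -1.70 in the same order of doses, with adjusted p values of 0.000387, 0.00104 and 0.000403 by limma voom. Under scaling by total split reads the change of HNRNPL at 25 μg/mL was -0.0017 (adjusted p = 0.988, limma voom), so neither its direction nor its call held. That of KRT8 was 0.13 (adjusted p = 0.363, limma voom), so its call was lost. FAS and GCLC were higher at 10 μg/mL than with DMSO, by 2.94 and 0.90 on the log2 scale, and had no listed intron at 25 μg/mL, so that their fitted differences of -7.52 and -10.14 depend on how a count of 0 is handled and are no bound on the size (adjusted p = 0.000558 and 0.000447, limma voom). Over all genes called at both doses, 295 of 902 had opposite directions.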

How the results depend on the processing

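Depth was lowest in replicate 1 at 25 μg/mL DRB, and the listing minimum limits every statement on genes at 0. Gene calls against DMSO, 5831, were 2857 over introns listed in all 4 libraries and 2476 to 5182 without 1 library, the lowest without replicate 2 at 25 μg/mL DRB. Those between the doses, 6013, were 3063 and 2566 to 5482. Exon inclusion calls, 5558, were 2894 with 1 exon per overlapping group, 71 with 10 reads of each kind in every library, 0 to 4203 without 1 library, and by limma on log odds 5798, with 3704 (without replicate 1 at 25 μg/mL DRB) to 5632 without 1 library. Calls on unspliced reads of exons, 461, were 1907 with all 10 libraries, 7 with the 4 compared, 219 without the filter, 1760 by limma on log odds, 0 to 6 without 1 library, and 0 to 2010 (1711 without replicate 2 at 10 μg/mL DRB) in such fits by log odds. Calls on unspliced reads of introns, 759, were 1243 with all 10 libraries, 0 with the 4 compared, 293 with a denominator of at least 30, 441 without the filter, 0 to 0 without 1 library and 0 to 940 in such fits by log odds. Early against late introns gave 6 calls, 35 with all 10 libraries, 22 and 0 with at least 10 and 100 reads per part, 0 for the first against the last intron and 0 to 21 without 1 library. The cause of these differences was not tested, apart from the fewer genes, exons and libraries that some settings hold.

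The replicate numbers do not pair the samples by the labels, and replicate differences correlated by 0.0211 between DRB 25 and DMSO, 0.0839 between DRB 25 and DRB 10 and 0.194 between DRB 10 and DMSO over 6711 genes. With the replicate number as a block, gene calls were 5315 against DMSO and 5450 between the doses, quasi-binomial calls 0 for exon inclusion, 0 for unspliced reads of exons, 0 for those of introns and 10 for early against late introns, and log-odds calls with the block 5601, 0 and 716 for the same 3 measures.

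HNRNPL reversed under scaling by total split reads, to -0.0017 against 0.49. No other named gene, exon or intron turned its direction, and under that scaling 155 of the named genes kept their side of the threshold, 8 fell below it and 6 passed it.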
